A study of Mus musculus with 15 samples.

Results

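The genes described here are the cytochrome P450 genes of families 1 to 4 in mouse lung. They were taken as every row of the expression table that carried exactly 1 gene symbol made of Cyp, a family number from 1 to 4, a letter and a number. This gave 69 genes, each with 1 row, among 28361 rows, of which 21780 carried 1 symbol, 1617 several symbols and 4964 none. Family 1 held 3 of the genes, family 2 held 44, family 3 held 6 and family 4 held 16, including 2 pseudogene symbols. A further 7 rows shared several symbols of these families and were left out, because their signal cannot be assigned to a single gene.

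RNA of the inferior right lung lobe from 15 male mice of the inbred strain C57BL/6N was hybridized to Affymetrix arrays that cover whole transcripts, 1 array for each animal. All mice, controls included, were anaesthetized with ketamine and acepromazine and received an arterial line and a tracheal tube. The control group of 5 mice was left to breathe synthetic air on its own for 6 h. In the air-ventilated group 5 mice received synthetic air from a rodent ventilator for 6 h with tidal volumes of 12 ml/kg and 2 cm H2O of positive end-expiratory pressure, and in the H2S-ventilated group 5 mice were ventilated in the same way with 80 ppm hydrogen sulfide added. The labels give body weight in place of an age. No mice that breathed H2S spontaneously are analysed here, so H2S and ventilation cannot be told apart in the comparison of H2S-ventilated mice with controls. Mice are called below by the second number of their labels, which the sources used here do not explain. These numbers fall into a low set, 1 to 12, with 3 mice per group, and a high set, 20 to 28, with 2 mice per group.

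P450 enzymes are heme proteins that insert an oxygen atom into their substrates. Families 1 to 3 mostly handle drugs and other foreign compounds, and parts of families 2 and 4 oxidize arachidonic acid and other fatty acids. Most of these enzymes sit in the endoplasmic reticulum and take electrons from the reductase Por. Liver expresses the widest range of them, and in mouse lung the club cells of the airways are a major site. Family 1 genes are classical targets of the aryl hydrocarbon (Ah) receptor, Cyp2b genes of the nuclear receptor Nr1i3, Cyp3a genes of Nr1i2 and Cyp4a genes of Ppara.

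Most P450 rows were dim in this tissue. The deposited values are linear intensities, and array medians lay between 179 and 187. Of the 69 genes, 11 lay above the array median on all 15 arrays, 9 on some arrays and 49 on none. Signals of different rows also depend on their probes, so the order given here is one of signals and not of transcript numbers.

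The brightest row was that of Cyp2f2, the club cell enzyme known for activating naphthalene, with a mean intensity of 13678. Cyp2b10, a xenobiotic-inducible enzyme, followed at 7889 and Cyp4b1, a lung enzyme that oxidizes fatty acids and some protoxins, at 5278. The other 8 genes above the median on all arrays were Cyp2s1 at 2039, Cyp2d22 at 1922, Cyp2e1 at 922, Cyp4f13 at 757, Cyp4f18 at 523, Cyp4f16 at 381, Cyp4f39 at 286 and Cyp2j6 at 251. The pseudogene Cyp2d37-ps, which had the next highest mean, lay above the median on 12 arrays. No Cyp2c gene of 13 reached the array median on any array, and Cyp3a13 was the only Cyp3a gene of 6 that did. The labelled tissue carried its markers, since all 8 club cell markers and all 8 alveolar type II cell markers were above the median on every array. Of 8 hepatocyte markers, 6 were above it on no array. The median standard deviation between mice of a group was 0.24 on the log2 scale for the P450 genes and 0.17 for all rows.

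**Figure D1:**
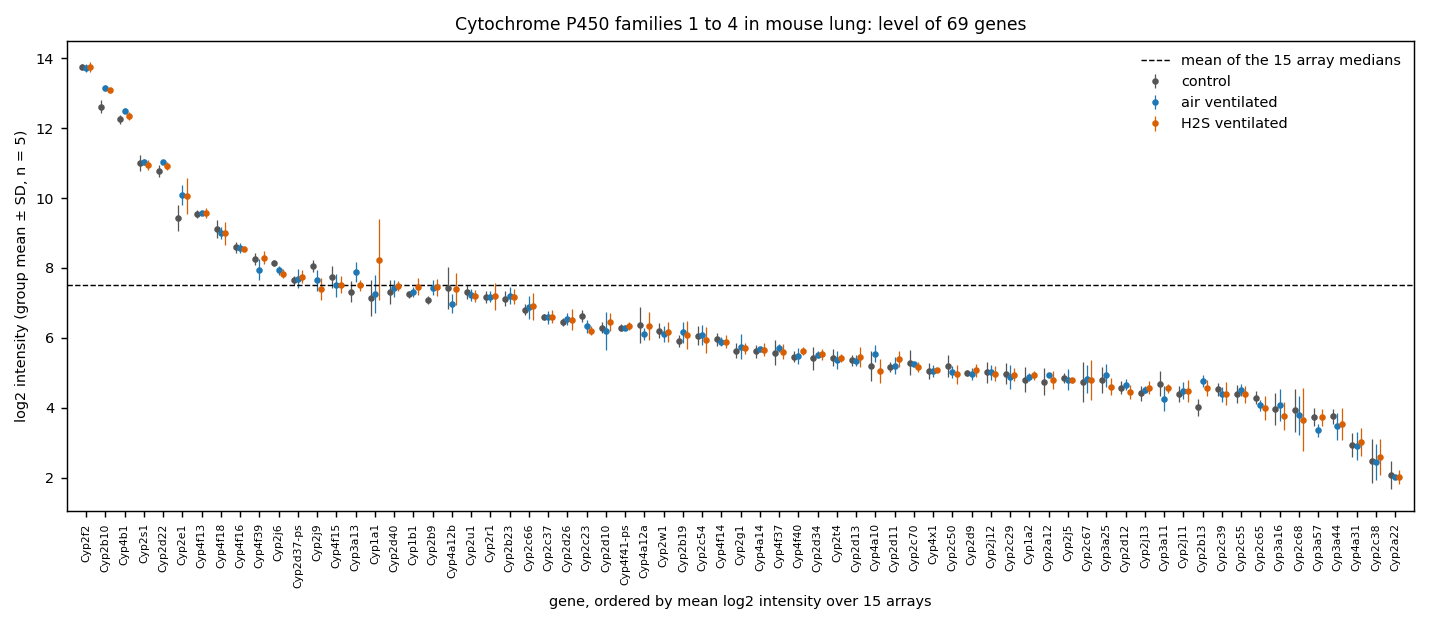
Mean log2 intensity of each of the 69 P450 genes in control, air-ventilated and H2S-ventilated mice, with the SD of 5 mice as the error bar and the mean of the 15 array medians as a dashed line. The 11 genes at the left lie above the median on every array, and the 49 genes that never reached it make up most of the right part.

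Differences between groups were tested with limma on log2 intensities over all 28361 rows, and a gene passed at a Benjamini-Hochberg adjusted p under 0.05. With air ventilation 3 P450 genes rose against control, where 1.56% of all rows rose, and 0 fell, where 1.89% fell. With H2S ventilation 2 rose, against 3.92% of all rows, and 3 fell, against 3.93%. Between H2S-ventilated and air-ventilated mice limma passed 0 P450 genes, against 0.0705% of all rows higher and 0.00705% lower, and 5 P450 genes had an unadjusted p under 0.05, which is 7.25% of them against 5.68% of all rows. The Bayes-regularized test of the study's methods (CyberT) passed 0 there as well. Both comparisons with control use the same 5 control mice.

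The unadjusted p was under 0.05 in 13 P450 genes with air ventilation, which is 18.8% of them against 14% of all rows, and in 9 with H2S ventilation, which is 13% against 20.7%. The median log2 difference of the P450 genes was 0.01 with air and 0.02 with H2S, and that of all rows was 0.01 and 0.002. The study asked for p values up to 0.005, adjusted values up to 0.1 and an effect size of 1.7 or more in its CyberT results. The effect size was read here as a fold change between group means of log2 values and applied to the limma fit. With these thresholds limma passed 0 P450 genes in each of the 3 comparisons. Cyp2b13 with air met both limits on p and missed only the one on fold, at 1.68. Those thresholds took 0.959% of all rows with air ventilation, 1.45% with H2S ventilation and 0.0599% between both ventilated groups.

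The 5 mice of 1 group lay entirely above or below the 5 of the other in few P450 genes. With air ventilation 3 genes were separated upwards, against 2.65% of all rows, and 1 downwards, against 2.9%. With H2S ventilation 2 were separated upwards, against 4.11%, and 3 downwards, against 4.09%. Between the ventilated groups 0 genes were separated, against 0.691% of rows upwards and 0.511% downwards.

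The genes that rose in both ventilated groups were Cyp2b10 and Cyp2b13, from the xenobiotic-metabolizing Cyp2b subfamily. Their start sites lie near that of Cyp2b9 on chromosome 7, in a run of 11 measured P450 genes. The RefSeq promoter windows of these 3 genes, from 250 bases before to 50 bases after the start in build GRCm38.p6, are shown because these neighbours are the Cyp2b genes with the clearest differences below. All 3 windows lie on the plus strand, that of Cyp2b10 at chr7:25897408-25897707, that of Cyp2b9 at chr7:26173159-26173458 and that of Cyp2b13 at chr7:26061245-26061544. Capitals in Cyp2b10 mark a match to TTATGNAA, the motif called D-box that is bound by the clock-related factors Dbp, Tef and Hlf. Capitals in Cyp2b9 and Cyp2b13 mark the bases at which these windows differ.
Cyp2b10: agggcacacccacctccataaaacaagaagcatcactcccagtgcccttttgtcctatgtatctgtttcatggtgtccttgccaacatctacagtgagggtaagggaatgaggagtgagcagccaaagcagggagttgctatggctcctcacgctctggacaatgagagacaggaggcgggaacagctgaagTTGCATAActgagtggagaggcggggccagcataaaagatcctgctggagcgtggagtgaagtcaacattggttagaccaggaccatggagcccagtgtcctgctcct
Cyp2b9: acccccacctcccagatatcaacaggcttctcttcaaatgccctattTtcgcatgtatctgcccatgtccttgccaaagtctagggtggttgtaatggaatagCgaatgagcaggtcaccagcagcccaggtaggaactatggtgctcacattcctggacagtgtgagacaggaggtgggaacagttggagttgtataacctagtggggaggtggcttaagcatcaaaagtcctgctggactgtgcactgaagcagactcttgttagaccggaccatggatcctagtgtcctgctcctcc
Cyp2b13: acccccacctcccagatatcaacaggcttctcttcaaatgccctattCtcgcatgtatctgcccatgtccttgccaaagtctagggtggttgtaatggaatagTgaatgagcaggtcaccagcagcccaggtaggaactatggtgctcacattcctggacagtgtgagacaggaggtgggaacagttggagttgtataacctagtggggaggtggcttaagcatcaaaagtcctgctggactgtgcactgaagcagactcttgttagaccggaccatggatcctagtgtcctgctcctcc
The Cyp2b9 and Cyp2b13 windows were identical at 298 of 300 bases, and the substitutions from Cyp2b9 to Cyp2b13 were T48C and C104T, counted from 1 at the 5′ end of the window. Either window matched that of Cyp2b10 at 229 of 300 bases. The D-box match was on the minus strand 58 bases before the start. Searched on both strands, that motif occurred in 3.38% of all 32851 promoter windows. Counted by gene, it occurred in 3.99% of 27025 genes and in 4 of the 53 P450 genes that have a window (7.55%). A match of letters does not show that a factor binds there.

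Cyp2b10 was higher in every ventilated mouse than in any control mouse. Its intensity was 7191, 6227, 7195, 5639 and 5369 in control mice, 9431, 9677, 9043, 8106 and 9112 in air-ventilated mice and 9015, 8601, 8034, 9199 and 8366 in H2S-ventilated mice. The fold change against control was 1.44 with air (log2 0.53, SE 0.09, adjusted p = 0.00474) and 1.37 with H2S (log2 0.46, SE 0.09, adjusted p = 0.0046). An exact two-sided permutation test gave 0.00794 for each, the smallest value that 5 mice against 5 allow. The rise had the same direction in both sets of label numbers, with log2 differences of 0.64 and 0.36 with air and 0.56 and 0.31 with H2S in the low and the high set.

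Cyp2b13 rose more on the log2 scale, from a far dimmer signal. Its intensity was 20.9, 14.1, 14.9, 17.4 and 14.2 in control mice, 31.9, 24.6, 24.1, 29.2 and 26.2 in air-ventilated mice and 26.9, 20.3, 25.4, 27.3 and 19.4 in H2S-ventilated mice. Every air-ventilated mouse lay above every control mouse, whereas H2S-ventilated mice 20 and 4 lay below the highest control mouse. The fold change was 1.68 with air (log2 0.75, SE 0.13, adjusted p = 0.00537) and 1.47 with H2S (log2 0.55, SE 0.13, adjusted p = 0.0151). The row was brighter than 7.24% of all rows, and the table gives no detection call, so it is uncertain how much of this signal is Cyp2b13. After adding 16 to each intensity the log2 difference with H2S was 0.30, and the gene still passed.

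Cyp2b9, whose promoter window is nearly that of Cyp2b13, had intensities of 119 to 146 in control mice, 135 to 200.1 in air-ventilated mice and 155 to 230.1 in H2S-ventilated mice. All H2S-ventilated mice and 4 of 5 air-ventilated mice lay above the highest control mouse. The log2 difference was 0.37 with air (SE 0.12, adjusted p = 0.123) and 0.38 with H2S (SE 0.12, adjusted p = 0.0652), and neither passed. With H2S it passed with the label-number set as a block (adjusted p = 0.0427), with CyberT (adjusted p = 0.0403), with array weights and with a variance trend, and with air it passed with array weights (adjusted p = 0.0226). Signals of such closely related genes may be shared between their probes. The other Cyp2b genes measured, Cyp2b19 and Cyp2b23, did not pass in either comparison, nor did the other 6 genes of the run.

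**Figure D2:**
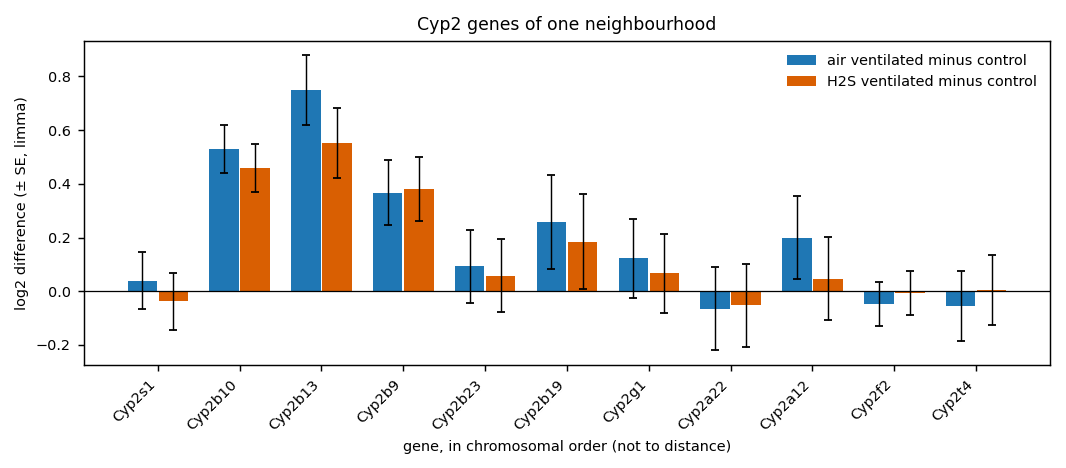
Log2 difference from control with its standard error, from limma, for 11 Cyp2 genes in their order along chromosome 7, with air ventilation and with H2S ventilation as separate bars and distances not to scale. Cyp2b10, Cyp2b13 and Cyp2b9 stand next to each other with differences of 0.37 to 0.75 with air ventilation, while Cyp2f2 lies at -0.05 with air and -0.01 with H2S.

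Cyp2f2 and Cyp2s1 belong to the same run and are bright. Cyp2f2 ranged from 12936 to 15200 in control mice, from 12241 to 15212 in air-ventilated mice and from 12203 to 15555 in H2S-ventilated mice, and these ranges overlapped almost fully. Its log2 difference from control was -0.05 with air (95% confidence interval -0.22 to 0.13) and -0.01 with H2S (-0.18 to 0.17). Cyp2s1, an airway enzyme that oxidizes retinoids, differed by 0.04 with air (-0.18 to 0.26) and -0.04 with H2S (-0.26 to 0.18). Both genes are known from airway epithelium, and the summed intensity of 8 club cell markers lay between 41024 and 48049 in controls, between 42700 and 47180 under air and between 42750 and 48134 under H2S ventilation. Of these markers limma passed 0 with air and 1 with H2S, Chad, which fell by 0.61. Chad was also lower in every air-ventilated mouse (643 to 1066) than in any control mouse (1110 to 1875). In H2S-ventilated mice it lay at 733 to 1114, overlapping the control mice. Aldh1a1 was higher in every air-ventilated mouse (7457 to 8912) than in any control mouse (6453 to 7339). In whole lung tissue, fewer cells of a type and less RNA per cell cannot be told apart. The part of cell composition in the Cyp2b values was not tested.

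Cyp3a13, a member of the steroid- and drug-oxidizing Cyp3a subfamily, was the remaining gene that rose with air ventilation. Its intensity was 155, 143, 218, 172 and 125 in control mice, 243, 329, 209.9, 199 and 223 in air-ventilated mice and 164, 171, 199.95, 209.9 and 165 in H2S-ventilated mice. Control mouse 1 lay above air-ventilated mice 26 and 22, so the groups overlapped. The fold change was 1.48 with air (log2 0.57, SE 0.15, adjusted p = 0.0498), and the call was kept in only 2 of the 15 fits that left out 1 mouse, those without control mouse 1 or air-ventilated mouse 22. With H2S the log2 difference was 0.18 (adjusted p = 0.588), and H2S-ventilated mice were lower than air-ventilated mice by a log2 difference of -0.39 (unadjusted p = 0.0204, adjusted p = 0.691), which did not pass.

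The genes that fell with H2S ventilation were Cyp2j9, Cyp2j6 and Cyp2c23. Cyp2j9 had intensities of 236, 269, 312, 277 and 239 in control mice, 145, 221, 215, 246 and 187 in air-ventilated mice and 121, 222, 179, 158 and 171 in H2S-ventilated mice. Every H2S-ventilated mouse lay below every control mouse, and air-ventilated mouse 22 lay within the control range. It was 1.58-fold lower with H2S (log2 -0.66, SE 0.16, adjusted p = 0.0142), while the log2 difference with air was -0.41 (SE 0.16, adjusted p = 0.202) and passed with CyberT (adjusted p = 0.0296). Within the low label numbers the log2 difference with H2S was -0.88 and within the high numbers -0.34.

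Cyp2j6, the gene next to Cyp2j9 on chromosome 4, had intensities of 280, 266, 298, 297 and 270 in control mice, 216, 256, 266, 261 and 232 in air-ventilated mice and 199.7, 253, 233, 220 and 245 in H2S-ventilated mice. All H2S-ventilated mice lay below all control mice, and the highest air-ventilated mouse lay below the lowest control mouse by less than the rounding shown here. The log2 difference was -0.30 with H2S (SE 0.08, adjusted p = 0.0335) and -0.20 with air (SE 0.08, adjusted p = 0.251). The call with H2S was kept in 9 of the 15 fits that left out 1 mouse and was lost with an adjusted p of 0.0548 when each array was centred on its median and of 0.0702 with CyberT. The promoter windows of both genes matched at 179 of 300 bases.

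Cyp2c23, an epoxygenase best known from kidney, had intensities of 89.2 to 118 in control mice, 86.3, 69, 72.3, 96.6 and 80.0 in air-ventilated mice and 78.1, 78.7, 72.9, 77.7 and 63.3 in H2S-ventilated mice. Every H2S-ventilated mouse lay below every control mouse. The log2 difference was -0.42 with H2S (SE 0.10, adjusted p = 0.0214) and -0.30 with air (SE 0.10, adjusted p = 0.159). The call with H2S was lost without control mouse 21, control mouse 9 or H2S-ventilated mouse 4. Of the other 4 Cyp2j genes and the other 12 Cyp2c genes, none passed in either comparison.

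**Figure D3:**
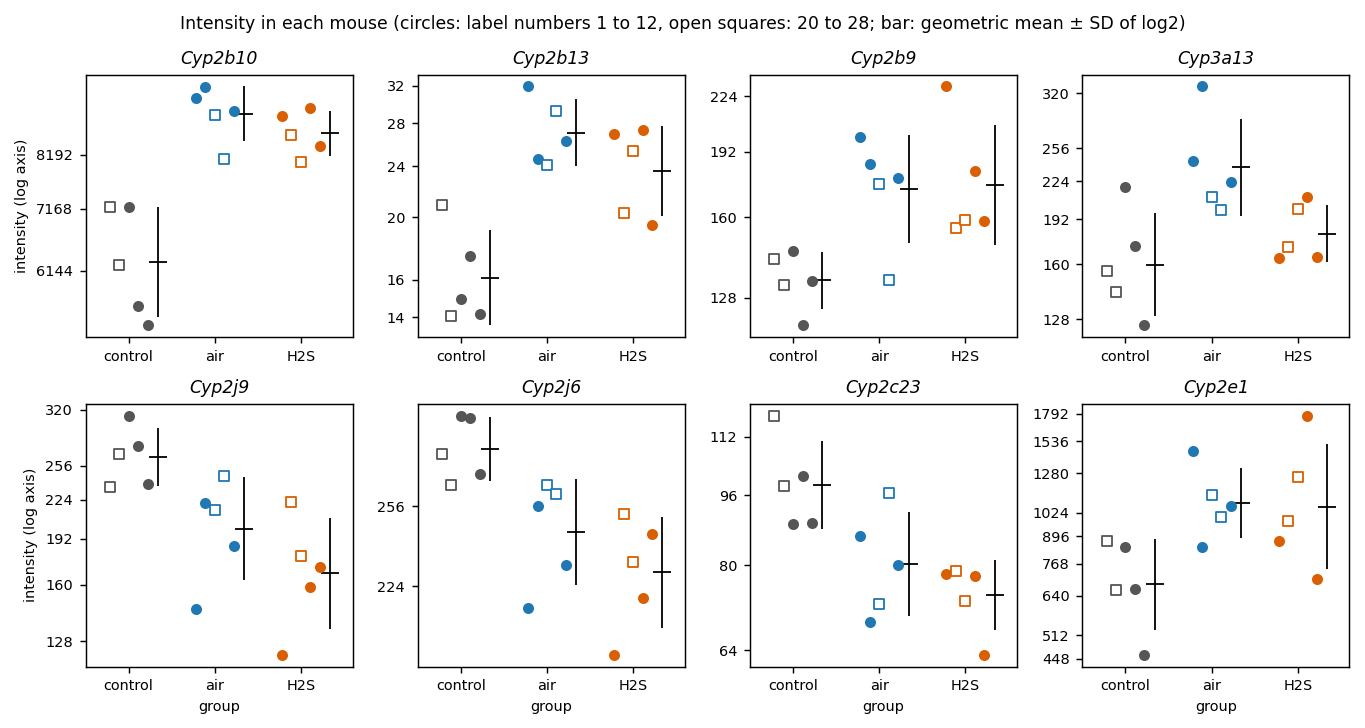
Intensity of 8 P450 genes in each mouse on a log axis, by group, with filled circles for label numbers 1 to 12, open squares for 20 to 28, and the geometric mean with the SD of log2 values as the bar. Cyp2b10 separates control mice from both ventilated groups, Cyp2j9, Cyp2j6 and Cyp2c23 separate control from H2S-ventilated mice, and Cyp3a13 and Cyp2e1 overlap between groups.

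Family 1 holds the Ah receptor targets Cyp1a1 and Cyp1b1, enzymes that oxidize polycyclic aromatic compounds, and Cyp1a2, which is mainly hepatic. Cyp1a1 had the largest single difference of all 69 genes, and it was uneven among mice. Its intensity was 122, 91.8, 241, 145 and 146 in control mice, 290.0, 151, 109, 127 and 141 in air-ventilated mice and 513, 147, 111, 609 and 496 in H2S-ventilated mice. H2S-ventilated mice 12, 8 and 4 were above all control and air-ventilated mice, and mice 20 and 28 were within the control range. The fold change with H2S was 2.14 (log2 1.09, SE 0.44, adjusted p = 0.153; exact permutation p = 0.103) and did not pass, and with air the log2 difference was 0.12 (adjusted p = 0.975). Against air-ventilated mice it was 0.98 (unadjusted p = 0.0399, adjusted p = 0.833).

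The 3 H2S-ventilated mice with high Cyp1a1 are those with low label numbers. Mice with low numbers also had the higher Cyp1a1 in the other groups. In control mice the intensities were 241, 145 and 146 in the low set against 122 and 91.8 in the high set. In air-ventilated mice they were 290, 151 and 141 against 109 and 127. In a fit with the number sets, the log2 difference of Cyp1a1 with H2S was 1.64 in the low set (SE 0.26, adjusted p = 0.00258, limma) and 0.27 in the high set (SE 0.32, adjusted p = 0.836). The sets differed by 1.37 (SE 0.41, unadjusted p = 0.00562), which did not pass after adjustment (adjusted p = 0.996). With the number set as a block the pooled difference passed (adjusted p = 0.0208), as it did with CyberT (adjusted p = 0.00842) and without H2S-ventilated mouse 28 (adjusted p = 0.0394). The fit with number sets and the block were added after the values were seen, so their p values are not independent support. Cyp1b1 differed by 0.21 with H2S (adjusted p = 0.284), with 0.34 in the low set and 0.01 in the high set. Cyp1a2, with intensities of 19.9 to 37.0 over all mice, differed by 0.13 (adjusted p = 0.693).

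The RefSeq promoter window of Cyp1a1, at chr9:57697363-57697662 on the plus strand of GRCm38.p6, is shown for its match to GCGTG, the core of the Ah receptor element, in capitals.
Cyp1a1: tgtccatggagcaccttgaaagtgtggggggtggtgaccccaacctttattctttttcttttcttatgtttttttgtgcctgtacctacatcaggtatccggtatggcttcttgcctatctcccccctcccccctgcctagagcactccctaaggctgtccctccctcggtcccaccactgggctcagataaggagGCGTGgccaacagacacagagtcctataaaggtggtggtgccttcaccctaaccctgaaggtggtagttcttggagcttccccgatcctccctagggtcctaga
The match began 54 bases before the start. Searched on both strands, GCGTG was found in 32.4% of all promoter windows. Counted by gene, it was found in 35.2% of 27025 genes and in 12 of the 53 P450 genes with a window (22.6%), so its presence is common. The enhancer elements known for this gene lie further upstream and are outside the window.

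Of 9 measured genes on a list of the Ah receptor, its partners and its targets outside the P450 genes, 1 rose with air ventilation and 4 with H2S ventilation, and 0 fell. Of all rows 1.56% rose with air and 3.92% with H2S. On this list 2 genes lay above the median on no array, among them Ahrr at 30.5 to 51.9 over all mice. The receptor gene Ahr did not pass, but every air-ventilated mouse (1243.5 to 1619) lay below every control mouse (1655 to 2014). Its log2 difference with air was -0.45 in the low and -0.22 in the high label numbers. H2S-ventilated mice lay at 1483 to 1955, overlapping the control mice. The list's median log2 difference was 0.12 with air and 0.23 with H2S, against 0.01 and 0.002 for all rows. Nqo1, a quinone reductase, rose by 0.90 under air ventilation (adjusted p = 0.0427) and by 1.22 under H2S ventilation (adjusted p = 0.00398). Aldh3a1, an aldehyde dehydrogenase, rose by 0.73 with H2S (adjusted p = 0.00748), and Tiparp, an Ah receptor target that limits the receptor, by 0.62 (adjusted p = 0.00474). Nfe2l2, the oxidative stress factor that also controls Nqo1, rose by 0.43 with H2S (adjusted p = 0.0057). Aldh3a1 did not pass with air, but every air-ventilated mouse (375 to 523) lay above every control mouse (272 to 348). In the low and high label numbers the log2 difference with H2S was 1.61 and 0.65 for Nqo1, 0.98 and 0.36 for Aldh3a1 and 0.63 and 0.61 for Tiparp. Tiparp had nearly equal values in both sets.

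**Figure D4:**
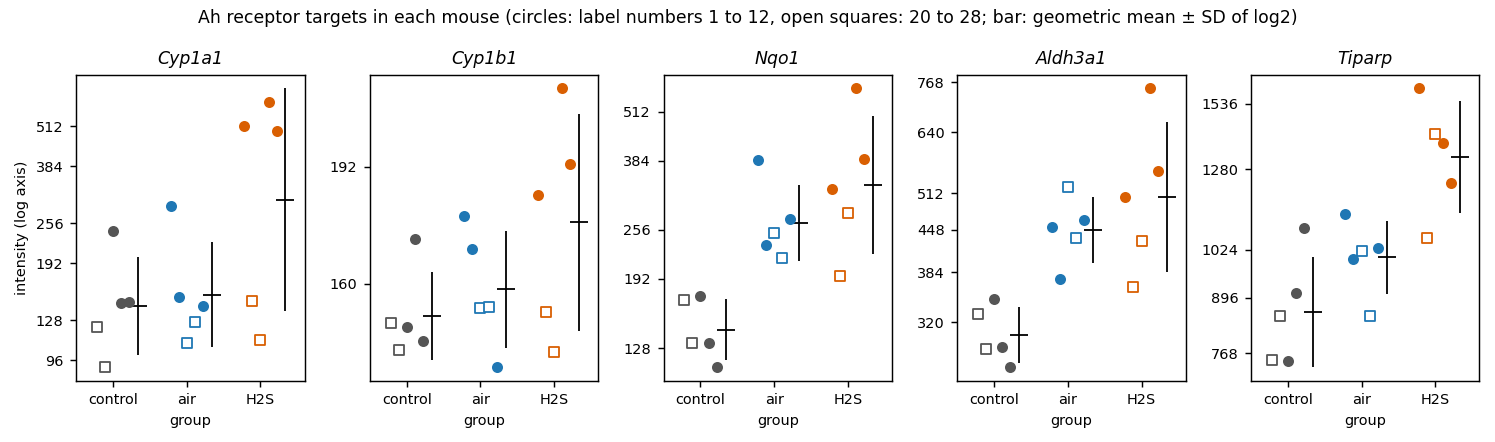
Intensity of Cyp1a1, Cyp1b1, Nqo1, Aldh3a1 and Tiparp in each mouse on a log axis, by group, with filled circles for label numbers 1 to 12, open squares for 20 to 28, and the geometric mean with the SD of log2 values as the bar. The circles of the H2S-ventilated group lie at 496 to 609 for Cyp1a1 and its squares at 111 and 147.

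Several bright genes had differences that did not pass. Cyp2e1, which oxidizes ethanol and other small molecules, had intensities of 459 to 873 in control mice, 842 to 1449 in air-ventilated mice and 704 to 1774 in H2S-ventilated mice. Its fold change was 1.58 with air (log2 0.66, SE 0.23, adjusted p = 0.145) and 1.55 with H2S (log2 0.64, SE 0.23, adjusted p = 0.105), and it passed with CyberT in both comparisons. Cyp4b1 differed by 0.24 (SE 0.08, adjusted p = 0.121) under air ventilation and by 0.09 (adjusted p = 0.572) under H2S ventilation, and the former passed with CyberT, array weights and a variance trend. Cyp2d22 was higher in every air-ventilated mouse, at 2038 to 2180, than in any control mouse, at 1518 to 1945, with a log2 difference of 0.25 (SE 0.08, adjusted p = 0.133).

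The 4 Cyp4f genes above the median on all arrays belong to a subfamily that hydroxylates leukotrienes and other fatty acids. Cyp4f13 differed from control by 0.03 with air (95% confidence interval -0.14 to 0.19) and 0.02 with H2S (-0.14 to 0.19), and Cyp4f16 by -0.01 (-0.20 to 0.17) and -0.04 (-0.22 to 0.14). Cyp4f39 differed by -0.31 (adjusted p = 0.305) under air ventilation and by 0.04 (adjusted p = 0.929) under H2S ventilation. Cyp4f18, known from neutrophils, differed by -0.11 in each comparison (adjusted p = 0.886 and 0.778), while the summed intensity of 9 neutrophil markers lay between 5986 and 11307 in controls, between 10734 and 15923 under air and between 9797 and 18668 under H2S ventilation. Of those markers 2 rose with air and 3 with H2S, led by Mmp8, a neutrophil collagenase, at 1.88 and 1.94.

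**Figure D5:**
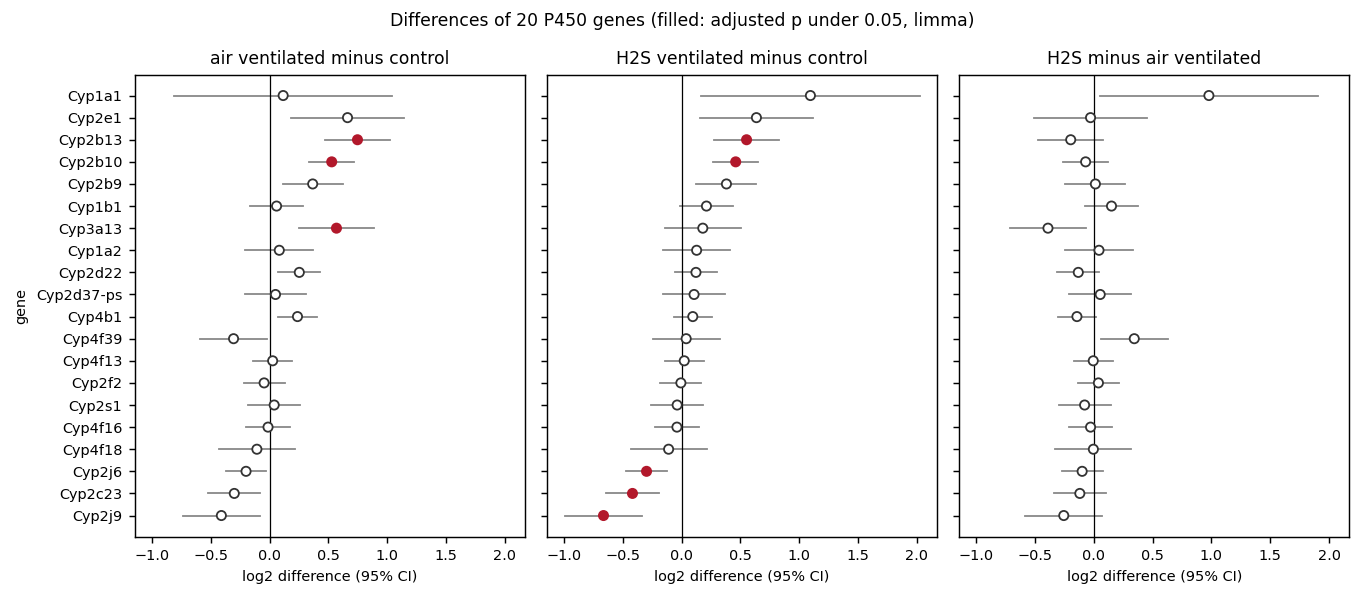
Log2 difference with its 95% confidence interval from limma for 20 P450 genes in the 3 comparisons, ordered by the difference of H2S-ventilated mice from control, with filled points for an adjusted p under 0.05. Cyp1a1 has the widest interval, from 0.17 to 2.02 with H2S, and no point is filled between the ventilated groups.

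Genes that serve P450 enzymes were described from lists. Por, the main electron donor, and Fdxr are not analysed here. Of 7 other electron donors 1 rose in each comparison with control, the mitochondrial ferredoxin Fdx1, by 0.52 under air ventilation (adjusted p = 0.00552) and by 0.50 under H2S ventilation (adjusted p = 0.00345). Of 12 genes of heme synthesis and breakdown 1 rose with air, and 3 rose and 1 fell with H2S. Cpox, a late enzyme of heme synthesis, rose by 0.47 and 0.50, Alas1, the rate-limiting enzyme of heme synthesis, by 0.44 with H2S (adjusted p = 0.0494), and Hmox1, which degrades heme and responds to oxidative stress, by 1.61 with H2S (adjusted p = 0.00589). Uros, another enzyme of heme synthesis, fell by 0.30 with H2S. The median log2 difference was 0.08 and 0.05 for electron donors and -0.06 and -0.08 for heme genes.

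Of 16 xenobiotic and lipid nuclear receptors 0 passed with air, and with H2S Pparg rose by 0.45 (adjusted p = 0.000887) and the glucocorticoid receptor Nr3c1 fell by 0.31 (adjusted p = 0.0479). Pparg was also the only gene on this list that differed between the ventilated groups, by 0.39 (adjusted p = 0.0317). On the same list 5 receptors lay above the median on no array, among them Nr1i3 (39.61 to 61.65) and Nr1i2 (68.09 to 98.26). Of 24 other drug-metabolizing enzymes 5 rose and 1 fell with air, and 3 rose and 2 fell with H2S. The sulfotransferase Sult1d1 rose by 0.47 and 0.70, the lung flavin monooxygenase Fmo2 by 0.38 and 0.30 and the glutathione transferase Gsta3 by 0.38 and 0.35, while the alcohol dehydrogenase Adh1 fell by 0.52 and 0.69. The list medians were 0.001 and 0.03 for the receptors and 0.06 and 0.14 for the enzymes.

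Markers of other cell types also differed between the groups. All 6 B cell markers fell in both comparisons, with a summed intensity of 3071 to 5164 in control mice, 1193 to 2879 with air and 1117 to 2192 with H2S. Of 8 endothelial markers 2 fell with air and 3 with H2S, and the other 6 and 5 did not pass. The sum of all 8 was 29292 to 32494, 25622 to 28453 and 25893 to 27657. Of 6 alveolar macrophage markers 1 rose with air and 3 with H2S, with sums of 6792 to 7553, 7656 to 7983 and 7766 to 8966. With air, 0 markers passed among 8 ciliated, 8 alveolar type II, 5 alveolar type I, 7 fibroblast and 5 smooth muscle genes, and with H2S 2, 1, 1, 0 and 1 fell. Of the hepatocyte markers Alb fell by 1.16 with air (adjusted p = 0.03), and 0 passed with H2S. Whether these shifts take part in the P450 differences was not tested.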

How the data were processed

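Per the study's methods, anti-genomic probes of like GC content gave the background that the authors subtracted, followed by quantile normalization between arrays and summarization by RMA, which the submitters' processing notes also name. The deposited values are linear intensities. The design had described them as log2, so they were transformed to log2 here. Genome build: not given in the sources used here. All 28361 rows and 15 arrays entered 1 limma 3.58.1 fit in R 4.3.3 (lmFit, contrasts.fit, eBayes, no covariate), with Benjamini-Hochberg adjustment over all rows. Every value column was used (0 unused). Symbols were read from the platform annotation supplied, and promoters and gene order from RefSeq tables, which hold a window for 53 of the 69 genes. Plots were made in Python 3.11.15 with matplotlib 3.10.9. The number of arrays limits the precision.

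The genes named are those that passed, those with the 12 highest means, those whose groups did not overlap and a fixed set of lung P450 genes. Members, the 16 lists and the tests were chosen with earlier results of these data known. Cyp2a5 is not reported here, since the annotation used pairs its symbol with that of another gene. Tested on simulated data over 28361 rows, the fit recovered 91 of 100 rows changed by a fold of 2 between H2S and control with 5 false calls. The P450 genes that passed changed by less than this fold, and recovery of such smaller changes was not simulated. Alternatives were other normalizations, a pseudocount of 16, a filter, variance models, CyberT (confidence 15, window 101), the study's thresholds, number sets and leaving out each mouse. CyberT with those thresholds, the fit with number sets and the blocks by label number were added after the values were seen.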

Additional observations from a re-analysis of the deposited data

Results flagged for a closer look

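In 3 of 60 groups of 5 mice, over the 20 genes named, 1 mouse lay far from the others by Dixon's criterion, and chance alone gives about 1 in 20. Cyp1b1 was highest in control mouse 9, at an intensity of 171.48, while the other control mice lay at 144.33 to 150.43. Cyp2d37-ps was highest in H2S-ventilated mouse 12, at 270.71, with the others at 194.9 to 211.31. Cyp2s1 was highest in H2S-ventilated mouse 8, at 2362.83, with the others at 1888.97 to 1926.33.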

How the results depend on the processing

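With air ventilation 3 P450 genes passed as reported. The count was 5 with array weights, 6 with CyberT, and 0 at the study's thresholds, with CyberT at those thresholds, and with the high label numbers alone. It was 2 to 4 when 1 mouse was left out and 4 with a variance trend. With H2S ventilation 5 passed as reported, against 7 with CyberT, 7 with the label-number set as a block, 6 with array weights, 6 with a variance trend, 3 among rows above the median row, where 16 of the 69 genes were tested, 3 with the low label numbers alone, 0 with the high numbers alone, 0 at the study's thresholds, and 1 with CyberT at those thresholds, Cyp1a1. It was 3 to 6 when 1 mouse was left out, with 3 without control mouse 21 or control mouse 9. Between the ventilated groups the count was 0 under every alternative run. Among 1685 single values under alternatives, 0 called values reversed, 43 lost and 19 gained a call, and 68 values that were not called changed sign. Cyp2b10 passed in 15 of 15 fits without 1 mouse in both comparisons, as did Cyp2b13, and Cyp2j9 with H2S. The high number set has 2 mice per group. Dim rows such as that of Cyp2b13 are limited by their signal over background. The second label numbers are not shared between groups. Mice of 1 run of 4 such numbers in different groups deviated together by a mean correlation of 0.179, from -0.179 to 0.358. Between mice of different runs the mean correlation was -0.0374, from -0.499 to 0.49. The runs were not taken as pairs in the main fit. With these runs as a replicate block 2 genes passed with air, without Cyp3a13, and 5 with H2S, with Cyp1a1 in place of Cyp2j6. Of the first label numbers control and air-ventilated mice share 2. A fit of only the mice with those numbers, with the pairs as a replicate block, passed 0 P450 genes and 0 of all rows. With so few mice it cannot show whether pairing changes the P450 calls. The cause of these changes was not tested.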

Other observations

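Among 17 genes of other P450 families, which mostly act on sterols, bile acids, retinoids and vitamin D, 1 rose with air ventilation and 0 passed with H2S. Cyp39a1, an oxysterol hydroxylase of bile acid synthesis, rose by 0.43 with air (adjusted p = 0.0163, limma) and differed by 0.22 with H2S (adjusted p = 0.186). The median log2 difference over the 17 genes was 0.01 with air and -0.02 with H2S.

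Between the label-number sets, the effect of ventilation differed at an unadjusted p under 0.05 in 5 of the 69 genes with air, which is 7.25% against 4.1% of all rows, and in 4 with H2S, which is 5.8% against 3.96%. Of 28361 rows 0 passed after adjustment. Cyp2a22, the dimmest gene, had a log2 difference with H2S of 0.32 in the low set and -0.61 in the high set (unadjusted p = 0.000691, adjusted p = 0.996).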
